A study of Homo sapiens with 3 samples.

Results

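The nuclear receptors are a family of transcription factors, and 44 of their genes were followed here by name, leaving out the HNF4 receptors. Identifiers matched 43 of the 44 to rows of a deposited table of 22827 genes, and NR2E3 was not matched and is not analysed here. All libraries came from Hep3B, a human hepatocellular carcinoma cell line, with 1 library labelled USP39-KO, 1 labelled SIRT7-KO and 1 labelled control. USP39 is a splicing factor of the ubiquitin-specific protease family, and SIRT7 is a nucleolar deacylase of the sirtuin family. No treatment, passage, clone or method of knockout is given in the labels, so whether each knockout is 1 clone or a pool is unknown. With 1 library per group, no difference had a replicate check and no p-value was computed.

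Most nuclear receptors share a DNA-binding domain of zinc fingers and a ligand-binding domain that exchanges corepressors for coactivators when a small lipophilic ligand binds. Thyroid hormone, retinoid, vitamin D and lipid receptors bind DNA as heterodimers with a retinoid X receptor (RXR), steroid receptors are held by heat shock proteins and bind as homodimers, and orphan receptors have no agreed natural ligand. In the liver, members of the family set bile acid, lipid, glucose and drug metabolism in response to hormones, diet and the daily clock.

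Library totals were 16630636 reads in USP39-KO, 16151522 in SIRT7-KO and 19427940 in the control. USP39 itself had 1066 reads in USP39-KO, 1511 in SIRT7-KO and 1829 in the control, and SIRT7 had 608 reads in SIRT7-KO, 808 in USP39-KO and 984 in the control. Each targeted gene was thus lowest in the library labelled for it but was still well read, and a count over the whole gene cannot show whether the coding sequence was cut. Most hepatocyte markers were not measured: of 22 on the list 5 were measured, and 11, including ALB and APOB, were listed at 0 in all libraries. The summed level of the list was 4487 CPM (counts scaled to library size) in USP39-KO, 4088 CPM in SIRT7-KO and 4309.7 CPM in the control, nearly all of it CPS1 and ASS1, enzymes of the urea cycle. Cholangiocyte markers, 5 of 9 measured, summed to between 640 and 732 CPM in the libraries. Fibroblast and stellate markers, 4 of 12 measured, summed to between 116 and 140 CPM. Neural markers summed to between 14.6 and 21.8 CPM and erythroid markers to between 1.09 and 2.70 CPM. Endothelial markers summed to between 1.46 and 2.27 CPM in the libraries and leukocyte markers to between 5.92 and 7.17 CPM, with KDR and PTPRC at 0 throughout.

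A receptor was called measured with at least 10 reads in 1 or more libraries, which 29 of the 43 matched receptors met, or 67.4%, against 55.7% of all genes in the table. In FPKM, the deposited unit that scales reads by gene length and library size, 23 receptors were at 1 or above in every library. NR2F6, an orphan receptor of the COUP-TF group, was the most abundant, at 28.3 FPKM in USP39-KO, 35.2 FPKM in SIRT7-KO and 34.0 FPKM in the control. It was followed in the mean over the libraries by RARG, a retinoic acid receptor, ESRRA, an estrogen-related receptor, NR2F1, NR4A1 and NR2F2. The place of ESRRA is less certain, as its reads may include some of TRMT112, a gene that overlaps it. The 6 genes were thus mostly receptors known as orphans. NR2F6 was first and RARG second in every library, RARG at 21.2 FPKM in USP39-KO, 26.7 FPKM in SIRT7-KO and 22.3 FPKM in the control. NR4A1, the fifth, and NR2F2, the sixth, lay close together. NR4A1 had 19.95 FPKM in USP39-KO, 17.1 FPKM in SIRT7-KO and 17.9 FPKM in the control. NR2F2 had 18.95, 17.1 and 18.4 FPKM in the same order of libraries. Below RARG the order differed between libraries, so neighbours there cannot be told apart. At the other end, THRB, NR1I3, RORA, RARB, RORB and ESR1 were measured but lay below 1 FPKM in every library.

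**Figure D1:**
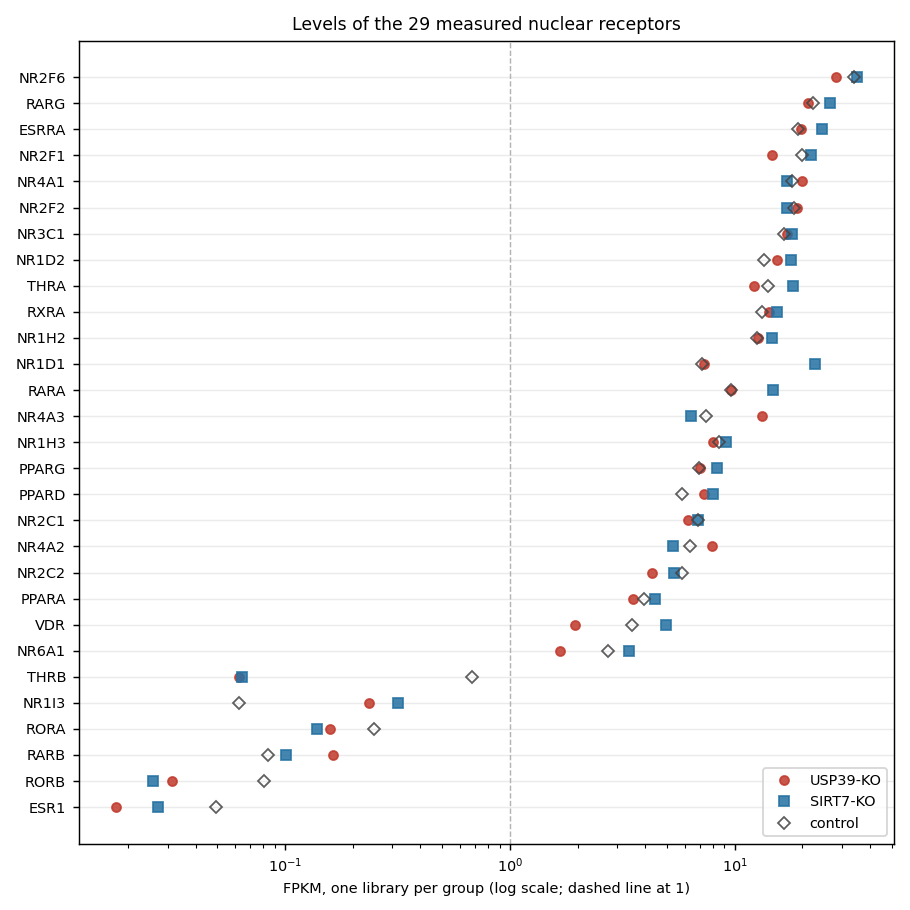
Level of each measured receptor in FPKM on a log axis, with 1 point for each library (USP39-KO, SIRT7-KO and control), ordered by the mean. Between any pair of libraries most receptors differ by less than 1.5-fold. THRB, at 0.0621 FPKM in USP39-KO, 0.0640 FPKM in SIRT7-KO and 0.680 FPKM in the control, shows the widest gap.

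Several receptors known for their work in the liver were scarcely read or not read at all. NR1H4, the bile acid receptor FXR, and NR0B2, its target SHP, which lacks a DNA-binding domain, were listed at 0 in every library, as were RXRB, RXRG, PGR, NR2E1 and NR0B1. A count of 0 allows up to 3 reads, or 0.182 CPM in USP39-KO, 0.184 CPM in SIRT7-KO and 0.154 CPM in the control, provided that the gene was counted. PHB2 and MTA1, genes that most cells use, were also listed at 0 in every library, so a listed 0 does not show that a receptor was unexpressed. NR1I2, the drug-sensing receptor PXR, had 2 reads in USP39-KO, 0 in SIRT7-KO and 3 in the control, and NR5A2, a bile acid and cholesterol regulator known as LRH-1, had 0, 1 and 3 reads in the same order. ESR2, NR3C2, ESRRB, ESRRG and NR5A1 also stayed under 10 reads everywhere.

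Around RXRB many other genes were listed at 0 as well. The RXRB gene, ENSG00000204231, lies on the minus strand at chr6:33193588-33200688 in GENCODE 29 (GRCh38), in the major histocompatibility complex, and is known as a widely expressed partner of the heterodimeric receptors. Within 150 kb of it, 11 of 15 other protein-coding genes were also listed at 0 in all libraries, among them RPS18, a ribosomal protein gene that every cell uses, and RING1, VPS52 and WDR46. Over all protein-coding genes 23.1% were at 0, and over the other protein-coding genes of chromosome 6 it was 32.7%. TAPBP, a chaperone of antigen loading, was the 1 measured neighbour, with 15 reads in USP39-KO, 9 in SIRT7-KO and 19 in the control. RXRB, like the other receptors without reads, is therefore described only as listed at 0.

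**Figure D2:**
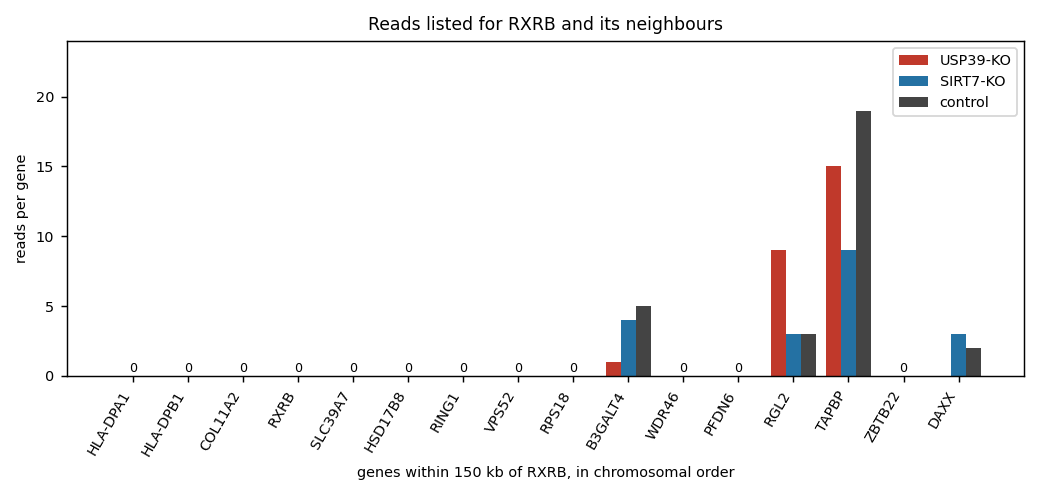
Reads of RXRB and of the 15 protein-coding genes within 150 kb of it in each library, evenly spaced in chromosomal order. RXRB and 11 of the 15 others lie at 0, and the highest is TAPBP with 19 reads in the control.

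For each pair of libraries a receptor was called higher or lower when it differed by at least 2-fold and the exact 95% interval of its log2 ratio, which covers counting error only, excluded 0. In USP39-KO against control, 2 of 29 receptors passed: NR1I3 was higher and THRB was lower, while 1.49% of all 12726 measured genes were higher and 3.37% lower, 4.86% in all. In SIRT7-KO against control, 4 of 29 passed, NR1I3 and NR1D1 higher and THRB and RORB lower, while 3.02% of all measured genes were higher and 4.05% lower, 7.06% in all. In USP39-KO against SIRT7-KO, 3 of 29 passed, NR4A3 higher and VDR and NR1D1 lower, while 3.51% of all measured genes were higher and 5.03% lower, 8.54% in all. As shares of the 29 receptors these were 6.90%, 13.8% and 10.3%, on counts of 4 or fewer, so none of them sets the family apart from other genes. Both comparisons with the control use the same control library, so THRB and NR1I3, which passed in both, do not count as 2 separate observations.

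Most receptors stayed within 1.5-fold, but not more often than other genes. In USP39-KO against control 20 of 29 did, or 69.0%, beside 86.3% of all measured genes. In SIRT7-KO against control it was 22, or 75.9%, beside 81.0%, and in USP39-KO against SIRT7-KO 22, or 75.9%, beside 77.0%. In SIRT7-KO against control, 16 receptors (55.2%) had an interval wholly above 0 whatever the size, against 27.3% of all genes. Wholly below were 6 (20.7%), against 28.8%. In USP39-KO against control these were 7 above (24.1%), against 22.0% of all genes, and 8 below (27.6%), against 22.5%. The median log2 ratio of the 29 receptors was 0.15 in SIRT7-KO over control, where that of all measured genes was -0.01, and 0.01 in USP39-KO over control, where that of all genes was -0.00. In USP39-KO over SIRT7-KO it was -0.17, where all genes gave 0.00. There 15 receptors (51.7%) were wholly below 0, against 29.2% of all genes, and 4 (13.8%) wholly above, against 29.8%. Intervals exclude 0 more often in deeply read genes: in SIRT7-KO against control 56.1% of all genes did, and 62.3% with at least 100 counts. At that depth the median in SIRT7-KO over control was 0.18 for 24 receptors and -0.01 for all genes. The receptors thus sat slightly higher in SIRT7-KO than in either other library, by less than 1.2-fold at the median.

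**Figure D3:**
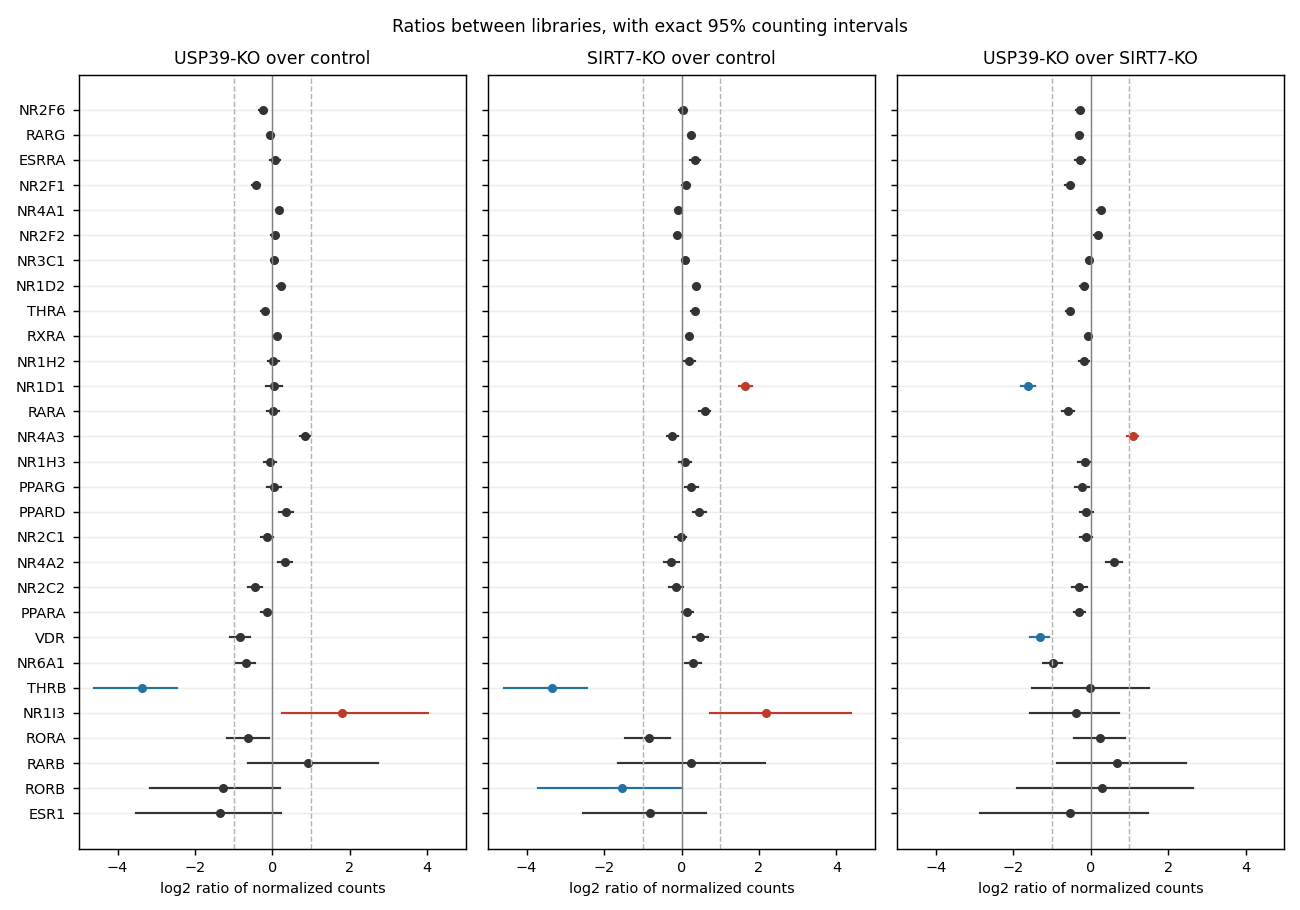
Log2 ratio of each measured receptor with its 95% counting interval for USP39-KO over control, SIRT7-KO over control and USP39-KO over SIRT7-KO, with dashed lines at 2-fold. THRB at -3.37 and -3.36 lies far from the rest in both ratios to the control, and NR1D1 at 1.65 stands out in SIRT7-KO over control.

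Among receptors for hormones and vitamins, the thyroid hormone receptor beta gene THRB, the main thyroid hormone receptor of normal liver, had 9 reads in USP39-KO, 9 in SIRT7-KO and 115 in the control. Both knockouts were low and the control was high. The log2 ratio was -3.37 in USP39-KO over control (95% counting interval -4.60 to -2.46), or 10.8-fold lower, and -3.36 in SIRT7-KO over control (-4.59 to -2.45), or 10.7-fold lower. Between the knockouts it was -0.01, with a counting interval of 0.349-fold to 2.82-fold, too wide to show a difference of less than 2-fold. Both ratios rest on the 1 control library, and whether that library or the knockouts depart from the parental line cannot be told apart.

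THRB, ENSG00000151090, lies on the minus strand at chr3:24117153-24495756 in GENCODE 29. Its neighbours did not move with it: within 1500 kb of it, 9 other genes were measured and 0 passed the rule in any of the 3 comparisons. UBE2E1, a ubiquitin-conjugating enzyme, had log2 ratios of -0.05 in USP39-KO and -0.11 in SIRT7-KO over control, and TOP2B, a topoisomerase, -0.05 and 0.28. THRB made up 0.51% of the summed FPKM of both thyroid hormone receptor genes in USP39-KO, 0.35% in SIRT7-KO and 4.59% in the control. In every library the rest was THRA, thyroid hormone receptor alpha, so THRA supplied nearly all of the receptor mRNA even in the control.

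THRA had 12.2 FPKM in USP39-KO, 18.1 FPKM in SIRT7-KO and 14.1 FPKM in the control. It was lowest in USP39-KO, with a log2 ratio to control of -0.20 (-0.30 to -0.10), and highest in SIRT7-KO, at 0.34 (0.25 to 0.43). Of 15 genes of thyroid hormone metabolism, transport and response, 10 were measured. None passed in USP39-KO against control (background 4.86%), and TXNIP alone was higher in SIRT7-KO against control, at 1.05. THRAP3, a coactivator and RNA processing factor and the most abundant of the list in FPKM, had -0.05 in USP39-KO and -0.71 in SIRT7-KO over control. HR, a corepressor of thyroid hormone receptors, had -0.07 and -0.13. KLF9, a gene that thyroid hormone is known to induce, had 0.42 and 0.39 in the same order. DIO1, the deiodinase that activates the hormone in liver, had 3 reads in USP39-KO, 4 in SIRT7-KO and 11 in the control, and its intervals included 0.

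The retinoic acid receptors were carried by RARG and RARA. RARG had 21.2 FPKM in USP39-KO, 26.7 FPKM in SIRT7-KO and 22.3 FPKM in the control. RARA had 9.59 FPKM in USP39-KO, 14.8 FPKM in SIRT7-KO and 9.63 FPKM in the control. SIRT7-KO was thus the high library for both, with RARA at a log2 ratio of 0.60 over control (0.46 to 0.74), or 1.52-fold, and RARG at 0.25 (0.16 to 0.33). RARB, which retinoic acid is known to induce, had 10 reads in USP39-KO, 6 in SIRT7-KO and 6 in the control. Its exons share 28 bases with TOP2B, whose even coverage alone would place 22.0 reads there in USP39-KO, 27.4 in SIRT7-KO and 26.9 in the control, more than RARB had in all. RXRA, the only RXR with reads, had 14.3 FPKM in USP39-KO, 15.4 FPKM in SIRT7-KO and 13.3 FPKM in the control, with log2 ratios of 0.12 (0.04 to 0.19) and 0.20 (0.13 to 0.27) over control.

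Several genes of retinoid handling passed the rule between the knockouts, where RARA and RARG did not. Of 26 listed, 15 were measured, with 1 higher and 2 lower in USP39-KO against control, 1 and 1 in SIRT7-KO against control, and 3 and 4 in USP39-KO against SIRT7-KO, where 3.51% and 5.03% of all genes passed. The other 8 of the 15 did not pass there, and the median of the list was 0.07. CRABP2, which carries retinoic acid to its receptors, had 27 reads in USP39-KO, 103 in SIRT7-KO and 95 in the control, a log2 ratio of -1.56 in USP39-KO over control. CYP26B1, which breaks retinoic acid down, had 303 reads in USP39-KO, 119 in SIRT7-KO and 264 in the control, 1.33 in USP39-KO over SIRT7-KO. STRA6, the retinol importer, was at -1.11 and TGM2, a transglutaminase induced by retinoic acid, at -1.08 in USP39-KO over SIRT7-KO. USP39-KO was thus the low library for the carrier, the importer and the response gene. The others past the rule were ALDH1A2, which makes retinoic acid, with 18 reads in USP39-KO, 4 in SIRT7-KO and 7 in the control, its relative ALDH1A3 at 1.13 in SIRT7-KO over control and -1.05 in USP39-KO over SIRT7-KO, RARRES1 at -1.29 in USP39-KO over control and RARRES2 at 2.15 in USP39-KO over SIRT7-KO and -2.57 in SIRT7-KO over control. RDH11, which interconverts retinal and retinol and was the most abundant of the list, had 2169 reads in USP39-KO, 1424 in SIRT7-KO and 2224 in the control.

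VDR, the vitamin D receptor, had 183 reads in USP39-KO, 453 in SIRT7-KO and 386 in the control, or 11.1, 27.8 and 19.9 CPM. USP39-KO was the low library and SIRT7-KO the high one. The gene, ENSG00000111424, lies on the minus strand at chr12:47841537-47943048 in GENCODE 29. Its log2 ratio was -1.32 in USP39-KO over SIRT7-KO (-1.58 to -1.07), 2.50-fold lower, with -0.84 (-1.10 to -0.58) in USP39-KO over control and 0.48 (0.28 to 0.68) in SIRT7-KO over control. Of 13 genes of vitamin D metabolism and response only 4 were measured. CYP24A1, the hydroxylase that inactivates vitamin D and that VDR is known to induce, had 86 reads in USP39-KO, 32 in SIRT7-KO and 92 in the control, a log2 ratio of -1.26 (-1.90 to -0.68) in SIRT7-KO over control and 1.40 in USP39-KO over SIRT7-KO. It was thus lowest in the library where VDR was highest. THBD, thrombomodulin, had 56, 169 and 91 reads in the same order of libraries, at 1.14 in SIRT7-KO over control and -1.60 in USP39-KO over SIRT7-KO. CYP27B1, which makes the active hormone, was at 1.03 in USP39-KO over SIRT7-KO and was the most abundant of the list in FPKM, with 174 reads in USP39-KO, 84 in SIRT7-KO and 162 in the control.

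Among lipid sensors, none of the PPARs or LXRs passed the rule in any comparison. The PPARs, receptors for fatty acids, were read at similar levels: PPARD had 7.30 FPKM in USP39-KO, 8.06 FPKM in SIRT7-KO and 5.81 FPKM in the control. PPARG had 7.03, 8.34 and 6.93 FPKM, and PPARA, the form best known from normal liver, had 3.55, 4.44 and 3.95 FPKM in the same order. PPARA was thus the least abundant of the 3 in every library. The largest ratio to control among them was PPARD at 0.46 (0.28 to 0.63) in SIRT7-KO, with 0.34 (0.17 to 0.52) in USP39-KO. Of 28 genes that PPARs are known to control, 19 were measured. ACSL1, which activates long-chain fatty acids, had 878 reads in USP39-KO, 44 in SIRT7-KO and 384 in the control. It was higher in USP39-KO, at 1.43 over control (1.26 to 1.61), and lower in SIRT7-KO, at -2.86 (-3.36 to -2.42). PDK4, the most abundant of the list and a brake on glucose oxidation, had 6064, 2881 and 5209 reads in the same order and passed only between the knockouts, at 1.06. ANGPTL4, an inhibitor of lipoprotein lipase, was at -1.13 there. In SIRT7-KO against control, TXNIP was also higher and CREB3L3, a factor of the fasting response, was lower, at -1.16. The median of the 19 was 0.03 in USP39-KO and -0.07 in SIRT7-KO over control, beside -0.00 and -0.01 in all genes.

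The LXRs, receptors for oxysterols, were both present. NR1H2 (LXR beta) had 12.7 FPKM in USP39-KO, 14.6 FPKM in SIRT7-KO and 12.6 FPKM in the control. NR1H3 (LXR alpha) had 8.02, 9.13 and 8.49 FPKM in the same order, so LXR beta was the more abundant form in each library. Of 18 genes of oxysterol metabolism and LXR response, 11 were measured. ABCA1, the cholesterol exporter that LXRs are known to induce, had 87 reads in USP39-KO, 584 in SIRT7-KO and 224 in the control. It was lower in USP39-KO, at -1.12 over control (-1.50 to -0.76), higher in SIRT7-KO, at 1.63 (1.41 to 1.86), and at -2.75 (-3.10 to -2.43) in USP39-KO over SIRT7-KO. Other LXR genes did not share that order. MYLIP, a ligase that degrades the LDL receptor, had 191 reads in USP39-KO, 229 in SIRT7-KO and 120 in the control, giving log2 ratios of 0.91 (0.57 to 1.25) in USP39-KO and 1.18 in SIRT7-KO over control. ABCG1, another exporter, was at 0.09 and 0.42, SREBF1 at -0.00 and -0.16, and SCD, the desaturase that was the most abundant of the list, at 0.18 and 0.35. SMPDL3A, a phosphodiesterase induced by LXRs in human cells, was higher in USP39-KO, at 1.44 over control.

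NR1I3, the constitutive androstane receptor CAR, a drug sensor of hepatocytes, had 13 reads in USP39-KO, 17 in SIRT7-KO and 4 in the control. Both knockouts were above the control, with log2 ratios of 1.80 (0.25 to 4.01) in USP39-KO and 2.19 (0.72 to 4.37) in SIRT7-KO, on at most 17 reads. Its exons share 661 bases with TOMM40L on the opposite strand, a gene with 124 reads in USP39-KO, 198 in SIRT7-KO and 195 in the control. Even coverage of TOMM40L would place 26.4, 42.2 and 41.6 reads in the shared bases, more than NR1I3 had. No source used here says whether the counting used strand, which leaves the reads listed for NR1I3 uncertain. Of 21 genes of drug metabolism known to respond to PXR or CAR, 10 were measured. CYP2B6, the classic CAR target, was at 0 in all libraries. ABCB1, the drug exporter MDR1, had 44 reads in USP39-KO, 19 in SIRT7-KO and 148 in the control, and was lower in both, at -1.50 (-2.03 to -1.02) and -2.68 (-3.48 to -2.02). The exporters ABCC2 and ABCC3 passed between the knockouts, at -1.22 and -1.35, and ABCC2, the most abundant of the list, had 2512 reads in USP39-KO, 5822 in SIRT7-KO and 5318 in the control. Of 14 genes of bile acid metabolism and FXR response 6 were measured, with FGF19, an FXR-induced hormone, at 10 reads in USP39-KO, 1 in SIRT7-KO and 0 in the control, higher in USP39-KO than in both other libraries, and no other call. SDC1, a membrane proteoglycan and the most abundant of that list, had 1215 reads in USP39-KO, 2145 in SIRT7-KO and 1954 in the control.

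Among circadian receptors, NR1D1 and RORB passed the rule in SIRT7-KO against control, NR1D1 on far more reads. NR1D1 encodes REV-ERB alpha, a heme-binding repressor that holds down BMAL1 and links the clock to liver metabolism. It had 336 reads in USP39-KO, 1018 in SIRT7-KO and 386 in the control, or 20.4, 62.4 and 19.9 CPM. SIRT7-KO was high and the other libraries were alike. The log2 ratio was 1.65 in SIRT7-KO over control (1.48 to 1.82), or 3.14-fold with a counting interval of 2.79-fold to 3.54-fold, and 0.04 (-0.18 to 0.25) in USP39-KO over control. Between the knockouts it was -1.61 (-1.79 to -1.43), or 3.06-fold lower in USP39-KO. It was the only receptor in SIRT7-KO against control that passed the rule on the higher side with at least 100 reads.

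NR1D1, ENSG00000126368, lies on the minus strand at chr17:40092787-40100725 in GENCODE 29, tail to tail with THRA, and its exons share 263 bases with those of THRA on the opposite strand. Even coverage of THRA would place 53.2 reads in them in USP39-KO, 77.0 in SIRT7-KO and 72.3 in the control. With these taken off, an alternative added after the data were seen, the log2 ratio was 1.83 (1.65 to 2.02) in SIRT7-KO over control and 0.09 in USP39-KO over control. The difference was thus no smaller without them. NR1D1, THRA and RARA stand together on chromosome 17, and their relatives NR1D2, THRB and RARB stand together on chromosome 3. Within 300 kb of NR1D1, 13 other genes were measured and 0 passed the rule in either knockout against control. MED24, a mediator subunit, had -0.04 in SIRT7-KO over control and 0.02 in USP39-KO over control, and MSL1, a chromatin protein, had 0.02 and -0.10, so the genes nearest to NR1D1 apart from THRA kept their level. RAPGEFL1 and GSDMB, farther out, passed between the knockouts, at -1.51 and -1.04 in USP39-KO over SIRT7-KO. The window was not flat in SIRT7-KO over control, though short of 2-fold. RAPGEFL1 was at 0.78 (0.59 to 0.97), RARA at 0.60 (0.46 to 0.74), GSDMB at 0.39 (0.10 to 0.69) and THRA at 0.34 (0.25 to 0.43). CDC6 went the other way, at -0.33 (-0.40 to -0.26).

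**Figure D4:**
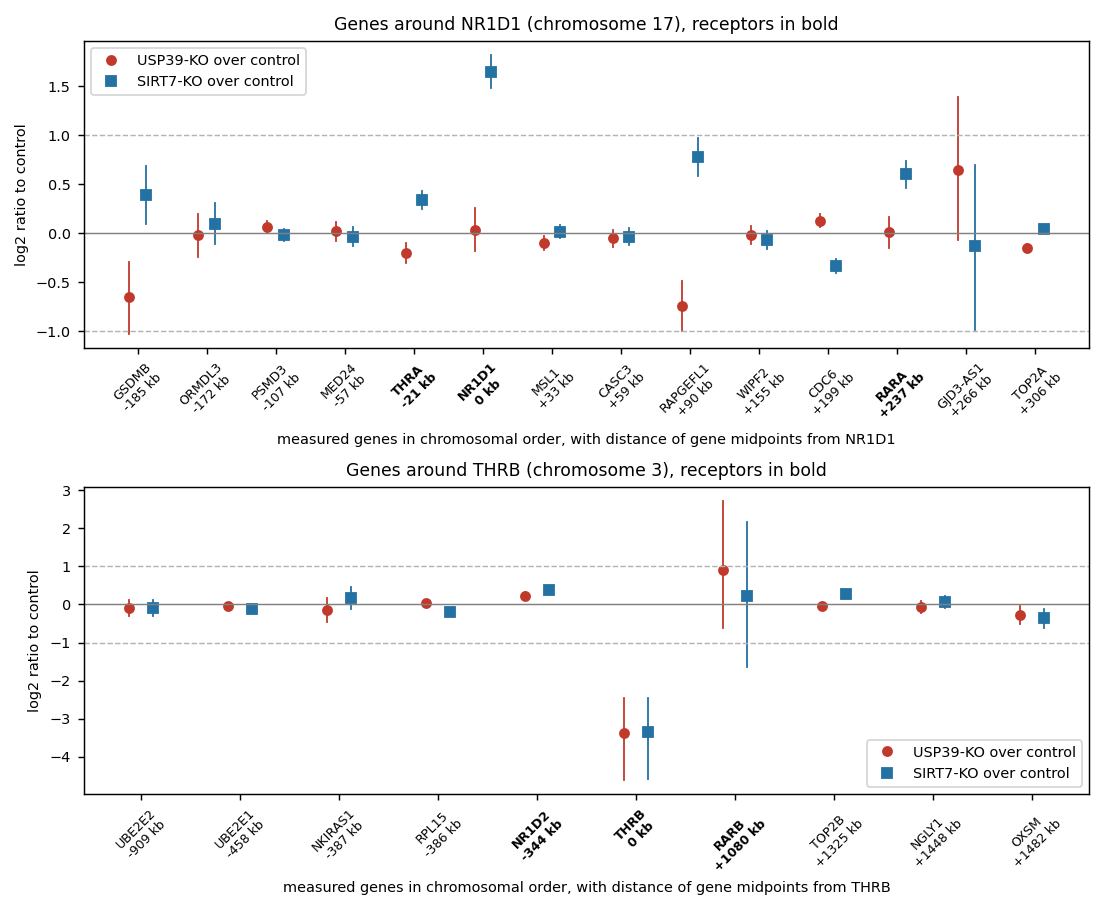
Log2 ratios to control, with 95% counting intervals, of measured genes in chromosomal order around NR1D1 (within 300 kb) and around THRB (within 1500 kb), for USP39-KO and SIRT7-KO. Dashed lines mark 2-fold: NR1D1 passes in SIRT7-KO alone, at 1.65, THRB passes in both, and no neighbour passes.

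NR1D2, which encodes the related repressor REV-ERB beta, had 15.5 FPKM in USP39-KO, 17.8 FPKM in SIRT7-KO and 13.5 FPKM in the control. Its log2 ratios were 0.21 (0.11 to 0.32) and 0.38 (0.28 to 0.48) over control. NR1D1 therefore made up 32.0% of the summed REV-ERB FPKM in USP39-KO, 56.0% in SIRT7-KO and 34.6% in the control, and SIRT7-KO was the only library in which it exceeded NR1D2. The sum was 22.8 FPKM in USP39-KO, 40.6 FPKM in SIRT7-KO and 20.7 FPKM in the control. The ROR receptors, which activate the same DNA elements that REV-ERBs repress, were scarce. RORA had 45 reads in USP39-KO, 38 in SIRT7-KO and 82 in the control, giving log2 ratios of -0.62 (-1.18 to -0.08) and -0.85 (-1.45 to -0.29) over control. RORB had 5, 4 and 15 reads in the same order, at -1.27 (-3.16 to 0.19) and -1.55 (-3.70 to -0.01). Both were lowest in SIRT7-KO, and RORB passed the rule there with a bound close to 0, a call lost with DESeq2 size factors or total counts.

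Of 21 clock genes 19 were matched and 17 measured, with 0 past the rule in USP39-KO against control, 1 higher in SIRT7-KO against control, and 3 lower in USP39-KO against SIRT7-KO. Of all genes 4.86% passed in the first in either direction, 3.02% were higher in the second and 5.03% lower in the third, so 0 and 1 of 17 lie near those shares. DBP, a clock output factor, had 133 reads in USP39-KO, 343 in SIRT7-KO and 198 in the control, giving a log2 ratio of 1.04 (0.79 to 1.30) in SIRT7-KO over control. PER1, a clock repressor, had 1504 reads in USP39-KO, 3424 in SIRT7-KO and 2073 in the control, giving a log2 ratio of 0.98 (0.90 to 1.05), just under the size asked for. TEF, a relative of DBP, had 116, 236 and 199 reads, at 0.50 (0.22 to 0.78). NR1D1, DBP, PER1 and TEF are genes that the CLOCK and BMAL1 activator is known to drive, and all had their highest CPM in SIRT7-KO. DBP, PER1 and TEF were also the ones past the rule between the knockouts, at -1.38, -1.20 and -1.03 in USP39-KO over SIRT7-KO. Other targets of the same activator did not follow: PER2 was at 0.05, PER3 at -0.09 and CRY2 at 0.05 in SIRT7-KO over control. BMAL1, which REV-ERBs repress, was at 0.11 in SIRT7-KO and -0.01 in USP39-KO over control, and NFIL3, another REV-ERB target, at -0.45 in SIRT7-KO and 0.14 in USP39-KO. The most abundant clock gene, BHLHE40, a repressor also induced by stress, was at 0.54 in SIRT7-KO and 0.06 in USP39-KO over control. The hour of harvest is not given in the labels, and its part in these values was not tested.

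**Figure D5:**
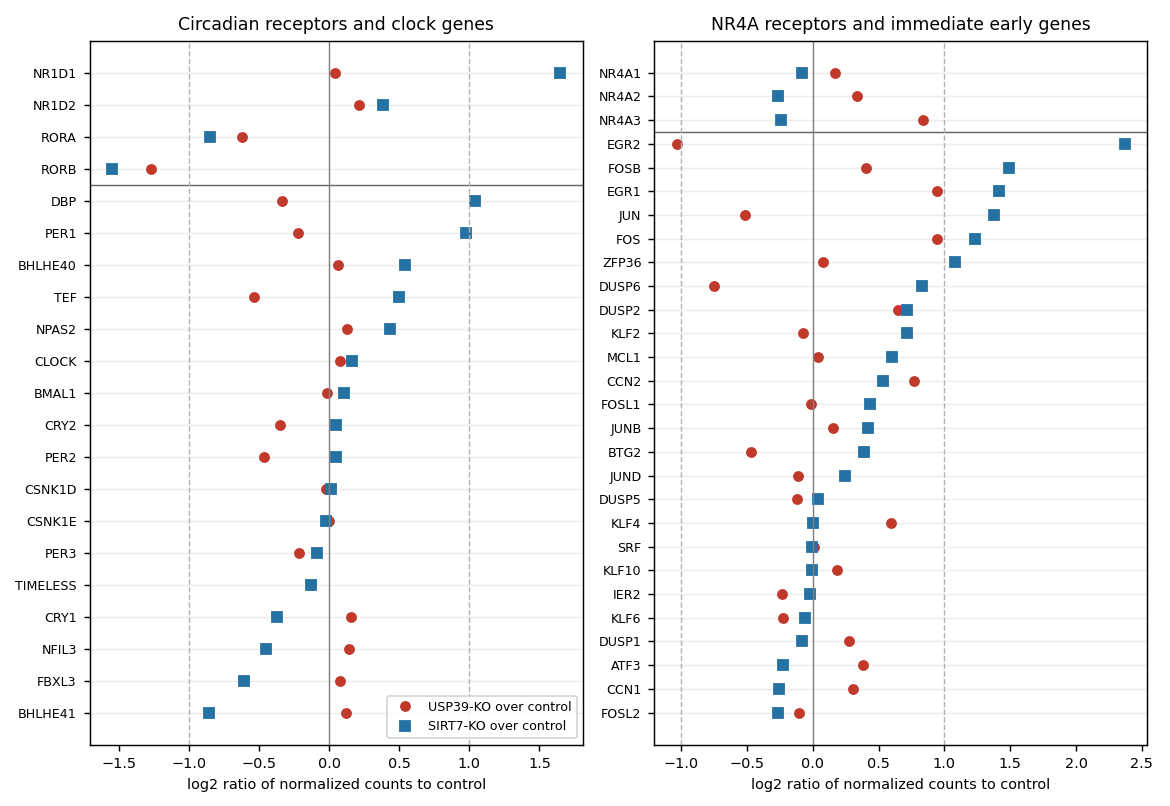
Log2 ratios to control of clock genes and immediate early genes beside the REV-ERB, ROR and NR4A receptors, as points without intervals, for USP39-KO and SIRT7-KO. NR1D1 at 1.65 tops the clock panel in SIRT7-KO, while in the early gene panel FOS, JUN and EGR1 lie above 1 in SIRT7-KO and the NR4A receptors do not.

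The promoters of the receptors with the clearest differences that have one in the RefSeq table are printed for reference (GRCh38.p14, 250 bases before to 50 after the gene start, in the direction of transcription). NR1D1 is at chr17:40100540-40100839 on the minus strand, THRB at chr3:24495659-24495958 on the minus strand and NR4A3 at chr9:99821635-99821934 on the plus strand. Capitals mark the GC box, the CCAAT box and the cAMP response element core, on either strand.
NR1D1: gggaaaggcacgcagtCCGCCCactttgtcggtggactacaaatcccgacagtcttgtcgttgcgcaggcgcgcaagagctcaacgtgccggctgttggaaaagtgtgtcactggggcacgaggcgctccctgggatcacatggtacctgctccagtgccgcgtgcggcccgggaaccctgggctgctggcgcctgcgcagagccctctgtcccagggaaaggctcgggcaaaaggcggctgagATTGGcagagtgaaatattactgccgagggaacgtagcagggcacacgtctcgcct
THRB: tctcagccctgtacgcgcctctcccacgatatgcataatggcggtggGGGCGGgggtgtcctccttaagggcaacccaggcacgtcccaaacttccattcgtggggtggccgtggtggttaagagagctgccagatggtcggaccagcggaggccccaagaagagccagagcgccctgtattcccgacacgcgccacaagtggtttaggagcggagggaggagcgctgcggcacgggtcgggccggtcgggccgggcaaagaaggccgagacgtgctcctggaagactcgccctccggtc
NR4A3: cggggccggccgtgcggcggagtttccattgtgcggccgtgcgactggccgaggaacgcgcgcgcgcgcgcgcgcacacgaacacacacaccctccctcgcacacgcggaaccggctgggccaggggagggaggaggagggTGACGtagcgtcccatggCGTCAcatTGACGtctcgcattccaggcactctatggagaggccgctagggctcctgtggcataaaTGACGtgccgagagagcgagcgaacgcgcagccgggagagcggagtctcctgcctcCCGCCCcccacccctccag

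Such windows were found for 26 of the 29 measured receptors, with no entry for VDR, NR4A2 and NR2F6. In them 8 motifs were searched on both strands: the E-box CACGTG, the receptor hexamer AGGTCA, the cAMP response element TGACGTCA and its core TGACG, which lies within it, the D-box TTATGTAA, the GC box GGGCGG, the CCAAT box CCAAT and the TATA box TATAAA. The NR1D1 window held 1 GC box, found in 44.6% of 27305 promoters of the same length, and 1 CCAAT box, found in 35.7%. The THRB window held 1 GC box and none of the other motifs. The E-box was found in 7.43% of all promoters and in 2 of the 26, NR2C1 and NR2F2, and the receptor hexamer in 13.9% of all and in NR1H3, PPARG and RARA. The D-box was in 0.912% of all promoters and the TATA box in 11.95%, and neither was in any of the 26. The absence of a motif says only that its letters are not in this window.

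Among steroid receptors only the glucocorticoid receptor was well read. NR3C1 had 17.1 FPKM in USP39-KO, 18.0 FPKM in SIRT7-KO and 16.7 FPKM in the control, nearly the same level in all. ESR1, estrogen receptor alpha, had 4 reads in USP39-KO, 6 in SIRT7-KO and 13 in the control, giving log2 ratios of -1.36 (-3.53 to 0.23) and -0.82 (-2.55 to 0.63) over control. The 14 chaperones that fold steroid receptors were all measured with 0 past the rule in any comparison. Their median was 0.04 in USP39-KO and 0.22 in SIRT7-KO over control, beside -0.00 and -0.01 in all genes, with HSPA8, a constitutive heat shock protein, at 0.96 (0.93 to 0.99) in SIRT7-KO and HSP90AB1, the most abundant in FPKM, at 0.29.

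Of 26 genes of glucocorticoid response and cortisol metabolism, 17 were measured, with 0 higher and 1 lower in USP39-KO against control, 0 and 2 in SIRT7-KO against control, and 1 and 4 in USP39-KO against SIRT7-KO. In either direction 4.86%, 7.06% and 8.54% of all genes passed in these comparisons, and the first 2 counts lie near those shares. IGFBP1, a liver-secreted binding protein of insulin-like growth factors, had 16 reads in USP39-KO, 40 in SIRT7-KO and 98 in the control, giving log2 ratios of -2.34 (-3.24 to -1.60) and -1.03 (-1.61 to -0.50). BIRC3, an inhibitor of apoptosis, was at -1.35 in SIRT7-KO over control. FKBP5, an immunophilin that restrains the receptor, had 474 reads in USP39-KO, 417 in SIRT7-KO and 884 in the control, giving log2 ratios of -0.66 and -0.83, below the size asked for. TSC22D3, the glucocorticoid-induced leucine zipper, had 1941 reads in USP39-KO, 954 in SIRT7-KO and 1839 in the control, giving a log2 ratio of 1.01 in USP39-KO over SIRT7-KO, where PER1, IGFBP1, MT1X (-1.72) and CDKN1C (-1.04) were lower. MT2A, a metallothionein and the most abundant of the list in FPKM, was at 0.33 and 0.26 over control, and SGK1, a kinase, at 0.09 and -0.54. Of 18 genes of estrogen response and metabolism 8 were measured, and CA12, a carbonic anhydrase, alone passed, at 1.30 in SIRT7-KO over control. IGFBP4, the most abundant of that list in FPKM, was at -0.61 in USP39-KO and -0.10 in SIRT7-KO over control.

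ESRRA, estrogen-related receptor alpha, which drives mitochondrial genes together with PGC-1 coactivators, had 19.8 FPKM in USP39-KO, 24.5 FPKM in SIRT7-KO and 19.1 FPKM in the control. SIRT7-KO was the high library, at 0.35 (0.23 to 0.46) over control. The exons of ESRRA share 284 bases with TRMT112 on the opposite strand. Even coverage of TRMT112 would place 186 reads there in USP39-KO, 217 in SIRT7-KO and 227 in the control. ESRRA had 996, 1200 and 1124 reads in the same order. With the expected reads taken off, its ratio was 0.38 (0.25 to 0.52) in SIRT7-KO over control. The ESRRA coactivator PPARGC1A (PGC-1 alpha) had 564 reads in USP39-KO, 331 in SIRT7-KO and 849 in the control, lower in SIRT7-KO at -1.11 (-1.29 to -0.92). Of 23 genes of the tricarboxylic acid cycle, respiratory chain and PGC-1 response, 19 were measured and 0 passed the rule in any comparison. Their median was 0.03 in USP39-KO and 0.01 in SIRT7-KO over control. ATP5F1B, a subunit of ATP synthase and the most abundant of them, was at -0.01 and -0.03, so neither the receptor's higher level nor the coactivator's lower one came with a 2-fold difference in these genes.

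The NR4A receptors are immediate early genes whose products act without a known ligand. NR4A3 (NOR1) had 1391 reads in USP39-KO, 653 in SIRT7-KO and 919 in the control, or 84.5, 40.0 and 47.3 CPM. USP39-KO was the high library, at 0.84 over control (0.72 to 0.96), or 1.79-fold, and at 1.08 over SIRT7-KO (0.94 to 1.22), or 2.11-fold. SIRT7-KO was at -0.24 over control (-0.39 to -0.10). NR4A2 (NURR1) had 521 reads in USP39-KO, 342 in SIRT7-KO and 488 in the control, giving log2 ratios of 0.33 (0.15 to 0.51) and -0.26 (-0.46 to -0.06) over control and 0.59 (0.40 to 0.80) between the knockouts. NR4A1 (NUR77) had 2419, 2014 and 2538 reads, at 0.17 (0.09 to 0.25), -0.08 (-0.17 to 0.00) and 0.25 (0.17 to 0.34). All 3 genes thus had their highest CPM in USP39-KO and their lowest in SIRT7-KO, and the gap was widest for NR4A3. The summed level of the family was 41.1 FPKM in USP39-KO, 28.8 FPKM in SIRT7-KO and 31.7 FPKM in the control, of which NR4A3 made up 32.2%, 22.2% and 23.6%.

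Of 27 other immediate early genes 25 were measured. In USP39-KO against control 0 passed the rule (4.86% of all genes), in SIRT7-KO against control 6 were higher (3.02%), and in USP39-KO against SIRT7-KO 5 were lower (5.03%). JUN had 244 reads in USP39-KO, 897 in SIRT7-KO and 411 in the control, giving log2 ratios of 1.38 (1.21 to 1.55) in SIRT7-KO and -0.51 in USP39-KO, each over control. FOS, its partner in the AP-1 factor, had 2235, 2697 and 1368 reads, at 0.95 in USP39-KO and 1.23 in SIRT7-KO over control. FOSB, EGR1, EGR2 and ZFP36 were the others higher in SIRT7-KO, between 1.08 and 2.37 over control. In USP39-KO over SIRT7-KO the lower ones were JUN, FOSB, EGR2, ZFP36 and DUSP6, with EGR2 at -3.40, FOSB at -1.09 and ZFP36 just past 2-fold. The median of the 25 was 0.42 in SIRT7-KO and 0.04 in USP39-KO over control, beside -0.01 and -0.00 in all genes, while each NR4A gene was below 0 in SIRT7-KO. MCL1, a survival factor and the most abundant of the list, was at 0.60 in SIRT7-KO and 0.04 in USP39-KO over control.

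NR4A3, ENSG00000119508, lies on the plus strand at chr9:99821855-99866891 in GENCODE 29. Its promoter, printed above beside those of NR1D1 and THRB, held the cAMP response element core TGACG 4 times, starting at -109, -91, -83 and -25 from the gene start, besides a GC box at 32 after it. The core once or more was in 25.0% of the 27305 promoters and in 7 of the 26 receptor promoters. Windows holding it 4 times or more numbered 90 of the 27305, or 0.330%, and NR4A3 was the only one of the 26. The cut of 4 is the count of NR4A3 itself, and repeats of the other motifs were not counted so. The share is therefore no test of rarity. The full element TGACGTCA was in 1.98% of all promoters and, among the 26, in NR6A1. These are matches of letters and not measured sites.

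Among the orphan receptors of the NR2 group, differences were small and ran mainly to lower values in USP39-KO. NR2F1 (COUP-TF1), a repressor known from neural and vascular development, had 14.7 FPKM in USP39-KO, 21.9 FPKM in SIRT7-KO and 19.9 FPKM in the control. Its log2 ratios were -0.42 (-0.54 to -0.31) in USP39-KO and 0.12 (0.02 to 0.22) in SIRT7-KO over control. NR2F6 was at -0.25 (-0.36 to -0.15) and 0.03 (-0.07 to 0.13). NR2F2 (COUP-TF2), which shapes veins and also acts in liver, went another way, at 0.06 (-0.03 to 0.15) and -0.12 (-0.21 to -0.03). NR2F1 was thus the low one of the 3 in USP39-KO, at 23.7% of their summed FPKM there, 29.5% in SIRT7-KO and 27.5% in the control.

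The testicular receptors NR2C1 (TR2) and NR2C2 (TR4), repressors of embryonic globin genes, were both present. NR2C1 had 6.198 FPKM in USP39-KO, 6.86 FPKM in SIRT7-KO and 6.88 FPKM in the control, a difference within its counting error. NR2C2 had 419 reads in USP39-KO, 510 in SIRT7-KO and 671 in the control, giving log2 ratios of -0.44 (-0.62 to -0.26) and -0.14 (-0.31 to 0.02). Its exons share 1197 bases with MRPS25 on the opposite strand, and with the reads of even MRPS25 coverage taken off the ratios were -0.27 (-0.53 to -0.00) and -0.02 (-0.28 to 0.23).

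NR6A1, the germ cell nuclear factor, a repressor of pluripotency genes, had 199 reads in USP39-KO, 390 in SIRT7-KO and 379 in the control. USP39-KO was low, at -0.69 (-0.94 to -0.44) over control and at -0.98 (-1.24 to -0.73) over SIRT7-KO, just short of 2-fold.

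VDR, NR6A1, THRA and NR2F1 were thus the well-read receptors with lower values in USP39-KO than in both other libraries by intervals that excluded 0, along with NR2F6 and, before any reads of MRPS25 were taken off, NR2C2. Those with higher values in USP39-KO than in both were the 3 NR4A genes. Among receptors with at least 100 reads in 1 or more libraries, 1 of 24 passed the rule in USP39-KO against control (1.71% of 10181 genes), 2 of 24 in SIRT7-KO against control (3.40%) and 3 of 24 in USP39-KO against SIRT7-KO (4.93%).

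Of the cofactors that receptors recruit, 1 passed the rule. All 30 listed coactivators were measured, with 0 past it in USP39-KO against control (4.86% of all genes), PPARGC1A alone in SIRT7-KO against control (7.06%) and 0 in USP39-KO against SIRT7-KO (8.54%). At these shares so few calls do not set the cofactors apart. CREBBP, a histone acetyltransferase, had 4547 reads in USP39-KO, 2629 in SIRT7-KO and 4528 in the control, giving log2 ratios of 0.25 (0.19 to 0.31) and -0.53 (-0.60 to -0.46). NCOA2, a p160 coactivator, was at 0.14 and -0.45, and its relatives NCOA3 at -0.10 and 0.28 and NCOA1 at 0.21 and 0.27. The p160 genes thus showed no shared direction. HMGB1, a DNA-bending protein and the most abundant coactivator, was at 0.00 and 0.06. Of 25 corepressors 22 were measured and 0 passed in any comparison: NCOR1 was at -0.09 and -0.07, and HDAC1, a deacetylase and the most abundant in FPKM, at 0.05 and 0.17. The corepressor farthest below the control with more than 100 reads was NRIP1 (RIP140), a gene chosen after its values were seen, with 142 reads in USP39-KO, 155 in SIRT7-KO and 305 in the control, giving log2 ratios of -0.86 (-1.16 to -0.57) and -0.72 (-1.01 to -0.44).

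Of 13 hepatocyte transcription factors, which share promoters with these receptors in liver, 12 were matched and 7 measured. In USP39-KO against control 1 was lower (3.37% of all genes), and in SIRT7-KO against control 2 were lower (4.05%). In USP39-KO against SIRT7-KO 1, CEBPA, was higher (3.51%). Counts this small do not set the list apart. FOXA1, a pioneer factor, had 16 reads in USP39-KO, 21 in SIRT7-KO and 40 in the control, and was lower in USP39-KO, at -1.06 over control. CEBPA had 10 reads in USP39-KO, 1 in SIRT7-KO and 18 in the control, and GATA6 had 72, 62 and 168 in the same order, both lower in SIRT7-KO, at -3.41 and -1.18. These factors were low in all libraries, and CEBPB, the most abundant of the list in FPKM, was at -0.10 in USP39-KO and 0.11 in SIRT7-KO over control.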

How the data were processed

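Total RNA taken up in Trizol went into Illumina TruSeq libraries, per the labels' protocols. The authors deposited 1 table of raw read counts and FPKM per gene, per the file headers. The counts were not normalized, and the deposited FPKM equal the counts over the listed length and library total (relative tolerance 1e-06). The aligner, the counter, the build and the strand setting were not stated in any label or header. The 44 members and the companion gene lists were chosen with earlier results of these data known. Symbols and coordinates came from GENCODE 29, promoters from RefSeq GRCh38.p14. The value of 1 listed gene is not reported here.

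Libraries were scaled with TMM factors from edgeR 4.0.16. Log2 ratios used a prior of 0.5 counts, with exact conditional binomial (Clopper-Pearson) 95% intervals computed with scipy 1.17.1. PCR copies were not told apart by molecular identifiers, and intervals and floors (3 counts) therefore cover counting error only. A gene needed at least 10 counts in 1 or more libraries, and a call needed a log2 ratio of at least 1 in size and an interval excluding 0. A fold in words is the ratio of scaled counts without the prior. The calculation was tested on simulated data. With 1 library per group edgeR and DESeq2 tests were not run. Every measured member was named, and of each list the members past the rule, up to 6 per comparison, and the most abundant one in mean FPKM. Some other list members were also named, and their choice followed no fixed rule. Other scalings (DESeq2 1.42.0 size factors, upper quartile, total counts), filters, priors, thresholds and FPKM were tried. Reads expected from an overlapping gene were taken off NR1D1, ESRRA and NR2C2 as an alternative added after the data were seen.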

Additional observations from a re-analysis of the deposited data

How the results depend on the processing

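No paired analysis was possible because each group has 1 library. No called receptor ratio changed direction under the scaling, prior, filter, threshold and FPKM alternatives, but counts of calls are small and moved with the threshold. In USP39-KO against control the higher call (NR1I3) became 0 with at least 100 counts and 0 with the whole interval past 2-fold, and at 1.5-fold there were 2 higher (NR4A3 added) and 4 lower (THRB, VDR, RORA and NR6A1). In SIRT7-KO against control the 2 higher calls became 1 (NR1D1) with at least 100 counts and with the whole interval past 2-fold, and at 1.5-fold there were 3 higher (RARA added) and 3 lower (RORA added). The 2 lower calls became 1 (THRB) with DESeq2 size factors, total counts, at least 100 counts, the whole interval past 2-fold, or log2 of FPKM plus 0.1, so the RORB call depends on these settings. In USP39-KO against SIRT7-KO the higher count was 2 without a filter (ESR2 added), 2 at 1.5-fold (NR4A2 added) and 0 with the whole interval past 2-fold, and the lower count was 4 at 1.5-fold (RARA and NR6A1 added) and 3 with total counts (NR6A1 added). The whole-interval and 100-count alternatives are stricter by construction, and the cause of the RORB change was not tested beyond its bound near 0. Of 690 list counts 44 moved, and of 336 list medians 53 moved. Library depth limits receptors under about 10 reads.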
